A study of Macaca mulatta with 161 samples.

Results

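Polycomb complex genes were followed in single inner cells of rhesus monkey (Macaca mulatta) blastocysts. The set was chosen by name and comprised 10 genes: EZH1, EZH2, EED, SUZ12 and JARID2 of Polycomb repressive complex PRC2, and RNF2, RING1, PHC1, CBX2 and CBX7 of complex PRC1. All 10 had a row among the 16049 genes of the expression table. Of these, 9 passed a filter of a mean FPKM (sequenced fragments per unit of transcript length, relative to the total of the cell) of at least 1 over all cells, as did 9781 genes in all, and EZH1 was the member below it.

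Polycomb proteins keep developmental genes silent by modifying histones. PRC2 methylates histone H3 at lysine 27 through its catalytic subunit EZH2 or EZH1, which works only together with EED and SUZ12. PRC1 attaches ubiquitin to histone H2A through RNF2 or RING1, and its canonical form contains a CBX protein that reads the PRC2 mark and a PHC protein that lets complexes cluster on chromatin. In the blastocyst, inner cells separate into epiblast, which expresses NANOG and forms the embryo proper, and primitive endoderm, which expresses SOX17 and forms yolk sac tissue.

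RNA with a poly(A) tail was sequenced from 161 single cells of 4 stages: 44 cells of early blastocysts with a small cavity at about embryonic day 5, 39 of middle blastocysts at about day 5.5, 52 of late blastocysts with an expanded cavity at about day 6, and 26 of hatching blastocysts at about day 7. All embryos came from oocytes of hormone-stimulated females and were fertilised and cultured outside the body, and the labels name no treatment that sets the groups apart. Cells counted as inner where they had not taken up PKH26, a membrane dye that stains the outer cells of the intact embryo. The labels tie no cell to an embryo or female, so each stage is 1 sample: spreads are between cells, no test was made, and the exact (Clopper-Pearson) 95% intervals on shares cover counting error of cells only and are too narrow where cells share an embryo.

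The reads that could be recovered from the table numbered 3134942 to 19848899 per cell, with a median of 11714580. Within each stage, cells whose FPKM of SOX17 exceeded that of NANOG are called SOX17-side and all others NANOG-side. This is a range of a measured balance, not a cell type. All early and middle cells were NANOG-side, 19 of 52 late cells were SOX17-side, and 7 of 26 hatching cells were. Leaving out NANOG and SOX17, which set the sides, 8 of 8 other epiblast markers with a row had a lower mean on the SOX17 side by at least 1 log2 unit at both stages, and 8 of 8 other primitive endoderm markers a higher one. The trophectoderm marker CDX2, of the outer layer, was found at or above an FPKM of 1 in 43 of 44 early and 13 of 26 hatching cells. Of 6 filtered trophectoderm genes, 2 were higher in hatching than in early cells by at least 1 log2 unit, KRT19 by 6.78 and KRT7 by 4.39, and 1 was lower, CDX2 by a difference of -2.13. Of 6 genes that mark granulosa cells around the oocyte, FSHR, AMH and FOXL2 reached an FPKM of 1 in no early cell, 5 of the 6 reached it in no hatching cell, and the other, HAS2, had a mean level of 0.07 in early and 2.40 in hatching cells. The part of RNA of these cell types in the results below was not tested. In late cells, 7 lay within 2 log2 units of equal NANOG and SOX17 (4 NANOG-side, 3 SOX17-side), and in hatching cells 0 did.

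Levels below are means over cells of log2(FPKM + 1) with the SD between cells, and a difference is the difference of 2 such means, which understates the change of genes with low values. A difference of at least 1 log2 unit is called large, and the share of the 9781 filtered genes with one is given as background. Across stages, PHC1, CBX2 and JARID2 were the members with higher levels in hatching than in early cells by at least 1 log2 unit, and at both later stages PHC1 and CBX2 were higher in NANOG-side than in SOX17-side cells, also by at least that much. The core subunits EED, SUZ12 and RNF2 were present in most cells throughout.

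The catalytic subunit EZH2 was the main methyltransferase gene at every stage. Its FPKM ran from 0 through a median of 8.26 to 43.5 in early cells, from 0.0284 through 10.7 to 43.6 in middle cells, from 0.141 through 18.0 to 59.1 in late cells and from 0.122 through 22.7 to 76.1 in hatching cells. The stages overlapped over most of their ranges, with a higher median at each later stage. Early cells had a mean level of 2.99 (SD 1.44) and hatching cells one of 3.98 (SD 1.74), a difference of 1.00 that was just short of the bound, with 3.40 (SD 1.40) in middle and 3.98 (SD 1.27) in late cells between them. EZH2 reached an FPKM of 1 in 38 of 44, 36 of 39, 50 of 52 and 22 of 26 cells.

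EZH1, the alternative catalytic subunit, was listed at 0 in 40 of 44 early cells and 9 of 26 hatching cells. An FPKM of 1 was reached by 2 of 44 early cells (interval 0.555% to 15.5%), 5 of 39 middle cells, 9 of 52 late cells and 9 of 26 hatching cells (interval 17.2% to 55.7%). Its mean level was 0.14 (SD 0.63), 0.28 (SD 0.68), 0.45 (SD 0.97) and 0.94 (SD 1.30) from the early to the hatching stage, and its highest value was 11.3, in a hatching cell. Among cells in which either gene reached an FPKM of 1, EZH2 was the higher of the pair in 38 of 38 early, 36 of 36 middle, 49 of 50 late and 22 of 23 hatching cells.

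EED, which binds the finished H3 mark and stimulates the enzyme, varied widely between cells of each stage. The FPKM in early cells ran from 0 through 21.2 to 209.9, from 0.0711 through 18.97 to 50.6 in middle cells, from 0.0664 through 25.8 to 84.7 in late cells and from 0 through 12.6 to 73.2 in hatching cells. Hatching cells had the lowest median, with a mean level of 3.18 (SD 2.15) against 4.25 (SD 1.73) in late cells, a difference of -1.07. Means were 4.17 (SD 1.62) in early and 3.99 (SD 1.44) in middle cells. At an FPKM of 1 or more, EED was found in 40 of 44 early, 36 of 39 middle, 46 of 52 late and 19 of 26 hatching cells.

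SUZ12, the scaffold of PRC2, had a smaller SD than EZH2 or EED at each stage. Its FPKM ran from 4.56 through 23.6 to 44.8 in early cells, from 1.48 through 27.02 to 58.4 in middle cells, from 3.08 through 13.5 to 30.4 in late cells and from 0.826 through 12.3 to 36.4 in hatching cells. Later cells sat lower: early cells averaged 4.42 (SD 0.76) on the log2 scale and hatching cells 3.49 (SD 1.10), a difference of -0.93, with 4.49 (SD 0.94) in middle and 3.74 (SD 0.74) in late cells. All cells but 1 of the 26 hatching cells had it at an FPKM of at least 1.

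JARID2, an accessory subunit that helps bring PRC2 to chromatin, had the highest mean level of the 10 genes at each stage. In early cells the FPKM ran from 0.457 through 25.2 to 70.1, from 11.9 through 32.2 to 69.9 in middle cells, from 3.91 through 41.4 to 109 in late cells and from 48.6 through 99.4 to 195 in hatching cells. The lowest hatching cell lay above the early median. From the early to the hatching stage the mean levels were 4.49 (SD 0.89), 4.90 (SD 0.65), 5.28 (SD 1.16) and 6.48 (SD 0.53), so that hatching exceeded early cells by 1.99 and late cells by 1.20.

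**Figure D1:**
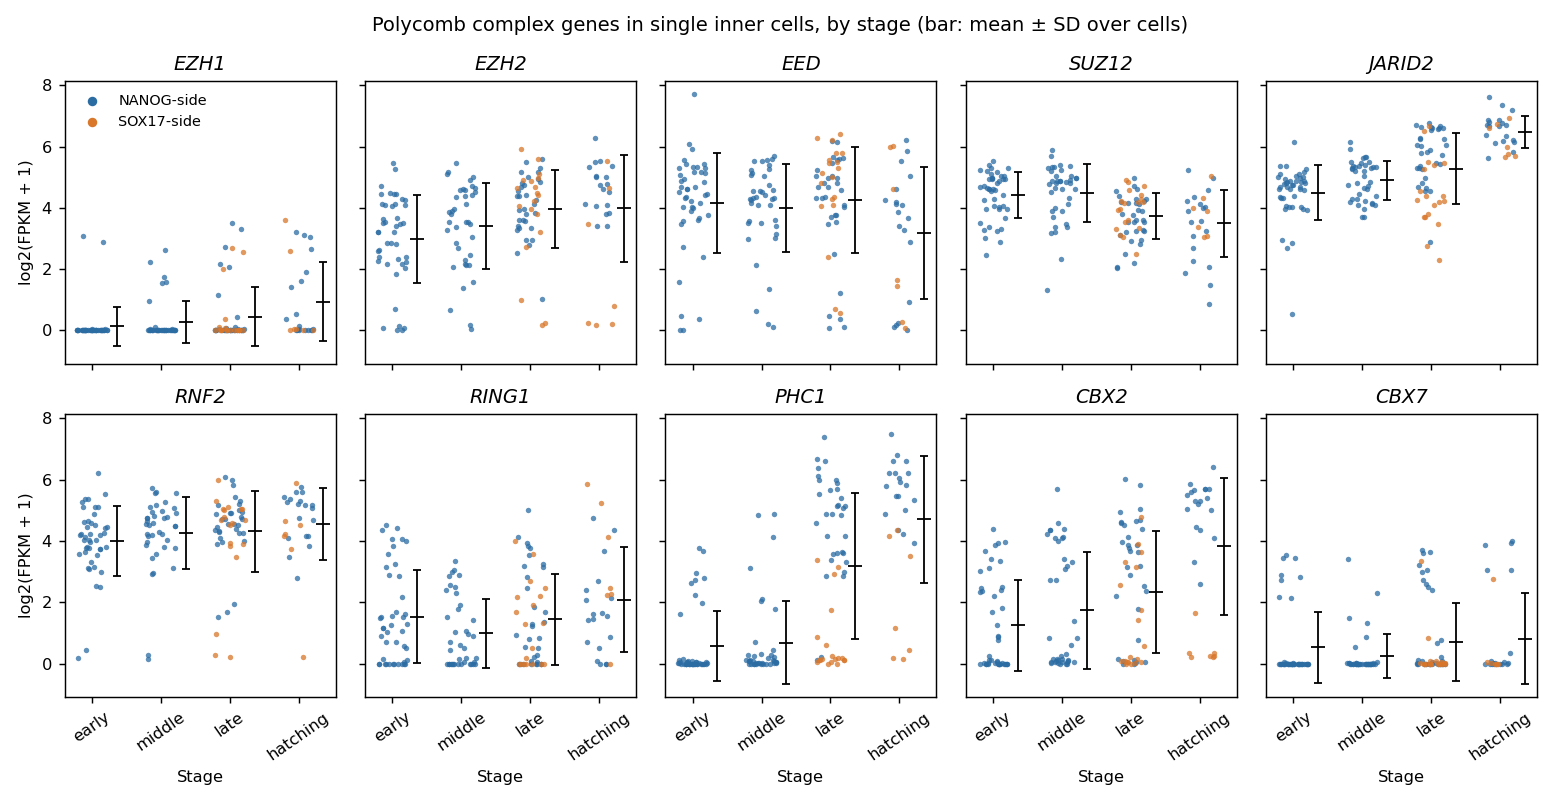
Level of each of the 10 genes, as log2(FPKM + 1), in the 161 cells by stage. Each point is a cell, blue for NANOG-side and orange for SOX17-side, and bars show the mean ± SD over cells; PHC1, CBX2 and JARID2 have higher means in hatching than in early cells by 4.13, 2.57 and 1.99, and EZH1 and CBX7 are near 0 in most cells.

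In PRC1, the ubiquitin ligase RNF2 (RING1B) was present in nearly all cells. Early cells had an FPKM from 0.140 through 16.0 to 73.6, with values from 0.111 through 22.2 to 52.2 in middle cells, from 0.161 through 23.9 to 66.8 in late cells and from 0.160 through 25.3 to 58.5 in hatching cells. The groups overlapped over most of their ranges, and mean levels were 3.99 (SD 1.14) for early cells against 4.55 (SD 1.17) for hatching cells, a difference of 0.56. Its paralogue RING1 was lower, with medians of 1.24, 0.432, 1.14 and 2.65 and highest values of 21.8, 9.12, 31.2 and 56.6 at the same stages. Its mean levels were 1.53 (SD 1.52), 0.98 (SD 1.13), 1.44 (SD 1.48) and 2.08 (SD 1.70), differences that were all smaller than the spread between cells. RING1 reached an FPKM of 1 in 25 of 44, 15 of 39, 26 of 52 and 18 of 26 cells, and RNF2 in 42 of 44, 37 of 39, 49 of 52 and 25 of 26.

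PHC1 had the largest difference of the set. Its FPKM ran from 0 through 0.0154 to 12.7 in early cells, from 0 through 0.0570 to 28.6 in middle cells, from 0 through 10.2 to 167 in late cells and from 0.118 through 41.4 to 179 in hatching cells. Most early and middle cells were near 0, and late cells divided into cells near 0 and cells well above it. An FPKM of 1 was met by 9 of 44 early cells (interval 9.80% to 35.3%), 7 of 39 middle cells (7.54% to 33.5%), 35 of 52 late cells (52.9% to 79.7%) and 23 of 26 hatching cells (69.9% to 97.6%). The mean level was 0.57 (SD 1.14), 0.68 (SD 1.35), 3.19 (SD 2.39) and 4.71 (SD 2.08), with hatching above early cells by 4.13 and late above middle cells by 2.51.

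CBX2, a reader of methylated H3, had a higher median at each later stage. Its FPKM ran from 0 through 0.139 to 19.95 in early cells, from 0 through 0.531 to 51.2 in middle cells, from 0 through 4.89 to 63.4 in late cells and from 0.158 through 31.8 to 83.6 in hatching cells. The mean level was 1.25 (SD 1.49), 1.74 (SD 1.91), 2.34 (SD 1.98) and 3.83 (SD 2.24), with hatching above early cells by 2.57. Cells with CBX2 at an FPKM of 1 or more numbered 18 of 44 in early (interval 26.3% to 56.8%), 17 of 39 in middle, 32 of 52 in late and 20 of 26 in hatching blastocysts (56.4% to 91.0%). The reader CBX7 was low, with mean levels of 0.53 (SD 1.15), 0.26 (SD 0.71), 0.71 (SD 1.26) and 0.82 (SD 1.49), and with 8 of 44, 4 of 39, 11 of 52 and 6 of 26 cells at an FPKM of 1 and a highest value of 15.1.

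Of the 9 members that passed the filter, 3 were higher in hatching than in early cells by at least 1 log2 unit (PHC1, CBX2 and JARID2), where 11.3% of all filtered genes were. None of the 9 was lower by that much, where 16.2% of genes were. The median difference was 0.56 over the 9 members and -0.12 over all genes. Between early and middle cells 0 of 9 members differed by 1 log2 unit in either direction, where 3.06% of genes were higher and 3.61% lower in middle cells. Between middle and late cells PHC1 was the 1 member with a large difference, higher in late cells as were 3.95% of genes, and 0 were lower, as were 5.82%. From late to hatching cells 3 members were higher (PHC1, CBX2 and JARID2, where 7.26% of genes were) and 1 was lower (EED, where 9.87% were). The median member differences were 0.11 for middle minus early, 0.45 for late minus middle and 0.24 for hatching minus late, beside 0.08, -0.05 and -0.14 over all genes.

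The order of the members by mean level differed between stages. In early cells JARID2, SUZ12, EED and RNF2 led, followed by EZH2, RING1, CBX2, PHC1, CBX7 and EZH1. In hatching cells JARID2 was followed by PHC1, RNF2, EZH2, CBX2, SUZ12 and EED, so that PHC1 moved from the 8th to the 2nd place. No neighbours in these orders differed by more than the SD over cells of the gap between them: the widest gap, between JARID2 and PHC1 in hatching cells, was 1.77 with an SD of 1.98.

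PHC1 was high in NANOG-side and low in SOX17-side cells. In late cells its FPKM ran from 0.0897 through 28.8 to 167 on the NANOG side and from 0 through 0.112 to 9.34 on the SOX17 side. It reached an FPKM of 1 in 31 of 33 NANOG-side and 4 of 19 SOX17-side cells, so the ranges overlapped in a few cells. The mean level was 4.59 (SD 1.66) against 0.75 (SD 1.15), a difference of -3.85 for SOX17-side minus NANOG-side. In hatching cells the FPKM ran from 14.2 through 56.2 to 179 on the NANOG side and from 0.118 through 1.25 to 19.4 on the SOX17 side, with 19 of 19 and 4 of 7 cells at an FPKM of 1, ranges that overlapped between 14.2 and 19.4, and a difference of -3.71.

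Within late cells the mean PHC1 level differed with the levels of SOX17 and NANOG. In the 24 late cells with SOX17 below an FPKM of 1 the mean level was 5.21 (SD 1.17), and 24 of 24 had PHC1 at an FPKM of 1. In the 9 NANOG-side cells with SOX17 at or above that value it was 2.96 (SD 1.71), with 7 of 9. In the 19 SOX17-side cells it was 0.75, with 4 of 19. The FPKM of PHC1 in the 9 cells ran from 0.0897 through 11.2 to 34.5. The means thus do not tell a graded level from a mixture of low and high cells. Across the 33 NANOG-side late cells PHC1 and SOX17 had a Pearson r of -0.71 (Spearman rho -0.52, and r = -0.67 without the 2 cells farthest from the median of SOX17), while PHC1 and NANOG had an r of 0.34 (rho 0.43). These are descriptions over cells that share library preparation and may share embryos. Across the 19 NANOG-side hatching cells PHC1 and NANOG had an r of 0.08 (rho 0.04), and across the 39 middle cells one of 0.35 (rho 0.29).

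CBX2 had a smaller difference in late cells and a complete separation in hatching cells. In late cells its FPKM ran from 0 through 11.45 to 63.4 on the NANOG side and from 0 through 0.160 to 26.7 on the SOX17 side, a difference of -1.54 between means of 2.90 (SD 1.95) and 1.36 (SD 1.66). The sides overlapped, with 24 of 33 and 8 of 19 cells at an FPKM of 1. In hatching cells it ran from 4.99 through 38.2 to 83.6 on the NANOG side and from 0.158 through 0.192 to 2.18 on the SOX17 side, with no overlap, a difference of -4.59, and 19 of 19 against 1 of 7 cells at an FPKM of 1 (interval 0.361% to 57.9% for the latter). Among late NANOG-side cells its mean was 2.91 in the 24 cells with SOX17 below an FPKM of 1 and 2.86 in the other 9. Its r with NANOG across the 19 NANOG-side hatching cells was -0.05 (rho 0.04).

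The mean level of JARID2 differed between the sides by at least 1 log2 unit in late cells and by less in hatching cells. Its ranges overlapped at both stages. In late cells its FPKM ran from 6.45 through 57.7 to 109 on the NANOG side and from 3.91 through 18.3 to 101 on the SOX17 side, a difference of -1.29 between means of 5.75 (SD 0.88) and 4.45 (SD 1.14). In hatching cells it ran from 48.6 through 102 to 195 on the NANOG side and from 50.1 through 63.0 to 120 on the SOX17 side, a difference of -0.38, which was 0.21 after median-of-ratios scaling. Every hatching cell of either side thus held at least 48.6 FPKM. Within the NANOG side of late cells JARID2 and NANOG had an r of 0.62 (rho 0.36), which was 0.23 without the 2 cells farthest from the NANOG median and so rests on those 2.

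**Figure D2:**
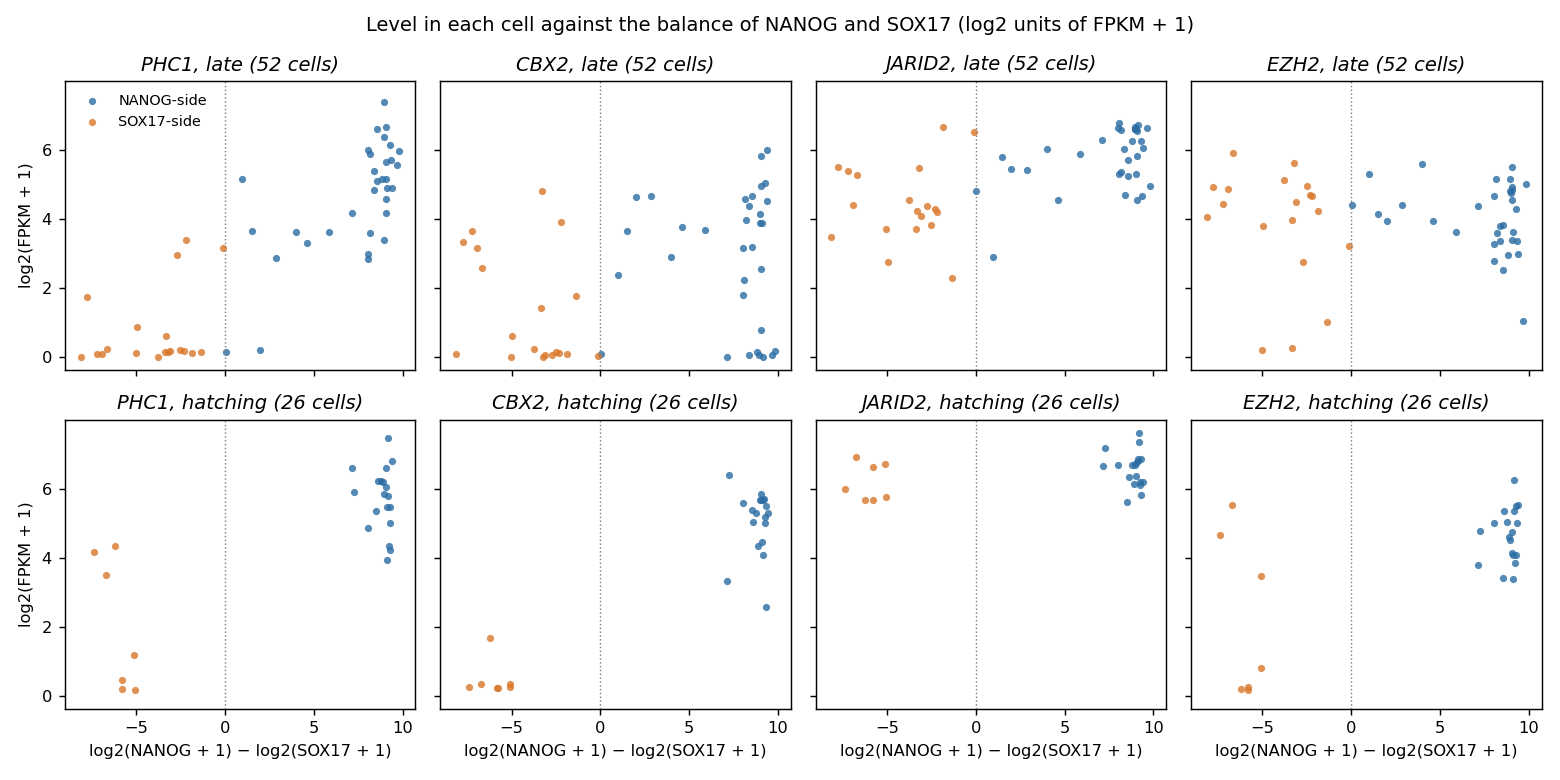
Levels of PHC1, CBX2, JARID2 and EZH2, as log2(FPKM + 1), in each late and hatching cell against the difference of the log2 levels of NANOG and SOX17; the dotted line marks equal levels. PHC1 is near 0 in most late SOX17-side cells (4 of 19 reached an FPKM of 1), while 4 of 7 hatching SOX17-side cells reached that value. CBX2 separates the sides completely in hatching cells, and JARID2 does not.

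EZH2 differed little between the sides in late cells and by more in hatching cells. In late cells its FPKM ran from 1.05 through 16.5 to 46.9 on the NANOG side and from 0.141 through 20.6 to 59.1 on the SOX17 side, a difference of -0.21. In hatching cells it ran from 9.51 through 25.8 to 76.1 on the NANOG side and from 0.122 through 0.736 to 45.2 on the SOX17 side, a difference of -2.50 between means of 4.66 (SD 0.78) and 2.15 (SD 2.33). All 19 NANOG-side cells and 3 of 7 SOX17-side cells (interval 9.90% to 81.6%) reached an FPKM of 1, and the ranges overlapped in those 3.

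Genes of cell division were also lower on the SOX17 side of hatching cells. All 12 mitosis genes were lower by at least 1 log2 unit on the SOX17 side of hatching cells, with a median difference of -3.77, as were 14 of 14 filtered replication genes, with a median of -2.59. In the same comparison 33.7% of all genes were lower and their median was -0.45. The mean level of the 12 mitosis genes ran from 1.00 to 6.50 in SOX17-side and from 3.92 to 7.15 in NANOG-side hatching cells, whereas its medians were 6.33 and 6.32 on the 2 sides of late cells. EZH2 and the mitosis mean had an r of 0.77 (rho 0.86) across the 7 SOX17-side hatching cells, which was 0.54 without the 2 cells farthest from the median of the mitosis mean. The same r was -0.19 (rho -0.13) across the 19 NANOG-side hatching cells, 0.63 (rho 0.44) across the 19 SOX17-side late cells and 0.14 across the 33 NANOG-side late cells. Whether cell division accounts for the difference in EZH2 was not tested.

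**Figure D3:**
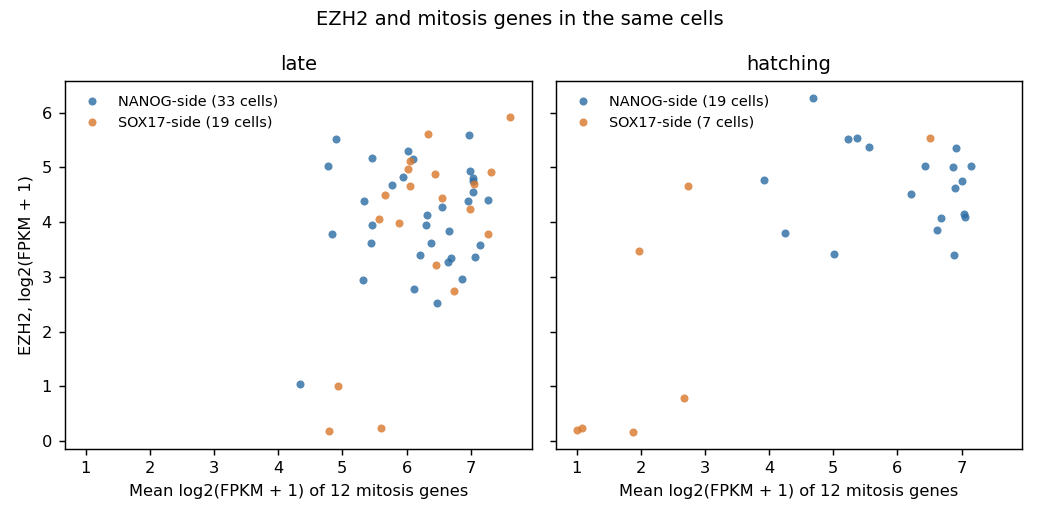
EZH2 level against the mean level of 12 mitosis genes (MKI67, TOP2A, CDK1 and others), both as log2(FPKM + 1), in each late and hatching cell. The SOX17-side hatching cells (orange, right) spread from 1.00 to 6.50 on the mitosis axis, and 4 of these 7 have EZH2 below an FPKM of 1.

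The other members differed by less than 1 log2 unit between the sides in late cells. The differences for SOX17-side minus NANOG-side were 0.58 for EED, 0.32 for SUZ12, -0.46 for RNF2, -0.28 for RING1, -0.75 for CBX7 and -0.06 for EZH1. In late cells with low title numbers they were 1.76 for EED, 0.35 for RNF2 and -1.01 for CBX7, so that EED and CBX7 passed the bound and RNF2 changed sign. In hatching cells they were -0.42 for EED, 0.46 for SUZ12, -0.86 for RNF2, -0.57 for CBX7 and -0.06 for EZH1. RING1 was higher by at least 1 log2 unit on the SOX17 side there, with an FPKM from 0 through 4.55 to 56.6 in 7 cells against 0 through 1.92 to 26.2 in 19 cells, ranges that overlapped, and a difference of 1.49.

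In late cells 3 of the 9 filtered members were lower on the SOX17 side by at least 1 log2 unit (PHC1, CBX2 and JARID2), where 7.89% of genes were, and 0 were higher, where 7.69% were. In hatching cells 3 were lower (CBX2, PHC1 and EZH2), where 33.7% of genes were, and 1 was higher (RING1), where 14.2% were. The 3 of 9 lower members in hatching cells are a share near the background of that comparison, in which the median over all genes was -0.45. After median-of-ratios scaling that median was -0.16, 26.2% of genes were lower and 20.8% higher, and SUZ12 was higher on the SOX17 side by 1.02. The median difference over the 9 members was -0.46 in late and -0.57 in hatching cells.

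The 7 SOX17-side hatching cells had fewer recovered reads (median 9027940 against 13070066 in NANOG-side hatching cells) and fewer genes at an FPKM of 1 (median 5680 against 6940). All 7 carried title numbers of 1 to 18, a range that held 5 of the 19 NANOG-side cells, and the labels do not say what the numbers mean. Within that range the difference was -4.89 for CBX2, -4.33 for PHC1, -2.79 for EZH2 and 0.71 for RING1. With every cell reduced to the same number of reads the differences over all hatching cells were -4.66, -3.72, -2.50 and 1.45. Over the trophectoderm list, with 8 genes, the mean level per cell ran from 2.60 to 5.37 in the SOX17-side and from 2.56 to 4.85 in the NANOG-side hatching cells, with 3 of its 6 filtered genes higher and 1 lower on the SOX17 side, GATA3 at an FPKM of 1 in 5 of 7 and 0 of 19 cells, and KRT7 in none of the 7. The part of these values in the results was not tested.

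Set against early cells, which were all NANOG-side, the 2 sides had different courses. NANOG-side cells had PHC1 higher by 4.02 in late and 5.13 in hatching cells, CBX2 by 1.65 and 3.81, JARID2 by 1.26 and 2.09, and EZH2 by 1.07 and 1.67, while SUZ12 differed by -0.80 and -1.05. SOX17-side cells had smaller differences in late cells, of 0.17 for PHC1, 0.11 for CBX2, -0.04 for JARID2 and 0.86 for EZH2. In hatching SOX17-side cells JARID2 was higher by 1.71, RING1 by 1.65 and PHC1 by 1.42 than in early cells, EED was lower by a difference of -1.30, and CBX2 and EZH2 differed by -0.78 and -0.83. There 1399 of the 9781 filtered genes were higher and 3247 lower by at least 1 log2 unit, with a median of -0.47. On the NANOG side 622 were higher and 769 lower in late cells, and 1339 and 1367 in hatching cells. These comparisons share the early cells and were added after the data were seen.

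Between late and hatching cells of the same side, CBX2, PHC1 and JARID2 were higher in hatching NANOG-side cells by 2.16, 1.11 and 0.84. In SOX17-side cells RING1 was higher by 1.91, JARID2 by 1.75 and PHC1 by 1.25, and EED and EZH2 differed by -1.75 and -1.69. Of the 9781 filtered genes, 1110 were higher and 2918 lower by at least 1 log2 unit on the SOX17 side, with a median of -0.40. On the NANOG side 920 were higher and 784 lower, with a median of -0.03. The stage difference of CBX2 depended on which cells were taken: hatching minus late was 1.49 over all cells, 2.85 over cells with high title numbers and -0.20 over those with low ones, of which 7 of 12 in hatching were SOX17-side. Within the NANOG side it was 2.37 and 1.91 in the same ranges. For PHC1 the pooled difference was 2.50 and 0.28, and within the NANOG side 1.22 and 1.16.

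Title numbers also divided other stage differences. Late minus middle was 0.90 for JARID2 and 1.68 for EZH2 in cells with high numbers, and -0.37 and -0.14 in cells with low ones. For RING1 it was 1.21 and -0.14, and for PHC1 2.43 and 2.78. Hatching minus early was 1.80 and 0.16 for EZH2 and 1.46 and -0.30 for RNF2 in the same ranges. Of the 12 hatching cells with low numbers, 7 were SOX17-side. The 5 NANOG-side ones had a mean EZH2 level of 4.94 (SD 0.93), against 3.16 (SD 1.39) in early cells with low numbers. For RNF2 these means were 4.27 and 4.36. Within the NANOG side, hatching minus late was 0.29 and 1.99 for JARID2. SUZ12, lower in hatching than in early cells, differed by -0.97 and -0.84, and EED, lower in hatching than in late cells, by -1.01 and -1.06. The JARID2 difference between hatching and early cells was 1.48 and 2.41.

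Within families of related subunits, the leading gene differed between groups of cells. PHC3, another polyhomeotic protein, was the highest of PHC1, PHC2 and PHC3 in 28 of 40 early cells in which the family reached an FPKM of 1, and PHC1 in 6. PHC1 was the highest in 30 of 33 late and 19 of 19 hatching NANOG-side cells. On the SOX17 side PHC3 led in 11 of 18 late cells. In the 7 SOX17-side hatching cells PHC2 led in 3, PHC1 in 2 and PHC3 in 2, and the mean level of PHC2 was 2.72 against 0.02 in NANOG-side cells.

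Among the CBX readers analysed here (CBX2, CBX6, CBX7 and CBX8), CBX8 was the highest in 17 of 33 early cells with the family at an FPKM of 1, and CBX2 in 11. CBX2 was the highest in 21 of 31 late and 17 of 19 hatching NANOG-side cells, and in 0 of 3 hatching SOX17-side cells. The mean level of CBX8 was 1.58 in early and 0.70 in hatching cells. RNF2 exceeded RING1 in 39 of 43 early, 37 of 38 middle and 48 of 51 late cells, in 19 of 19 NANOG-side hatching cells and in 5 of 7 SOX17-side ones.

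The PCGF proteins define the variants of PRC1. PCGF6, of a non-canonical variant, was the highest in 25 of 44 early and 11 of 19 hatching NANOG-side cells, with mean levels of 4.55 and 4.81, and had a mean of 1.02 in hatching SOX17-side cells. PCGF2 (MEL18), a canonical subunit, had a mean of 1.41 in early cells, 3.59 and 3.68 on the NANOG side of late and hatching cells and 1.68 and 1.33 on the SOX17 side. PCGF1 and PCGF3 were lower in hatching than in early cells, at 2.21 against 3.63 and 2.21 against 3.47. BMI1, the other canonical PCGF gene, reached an FPKM of 1 in no cell and is given here only as listed.

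**Figure D4:**
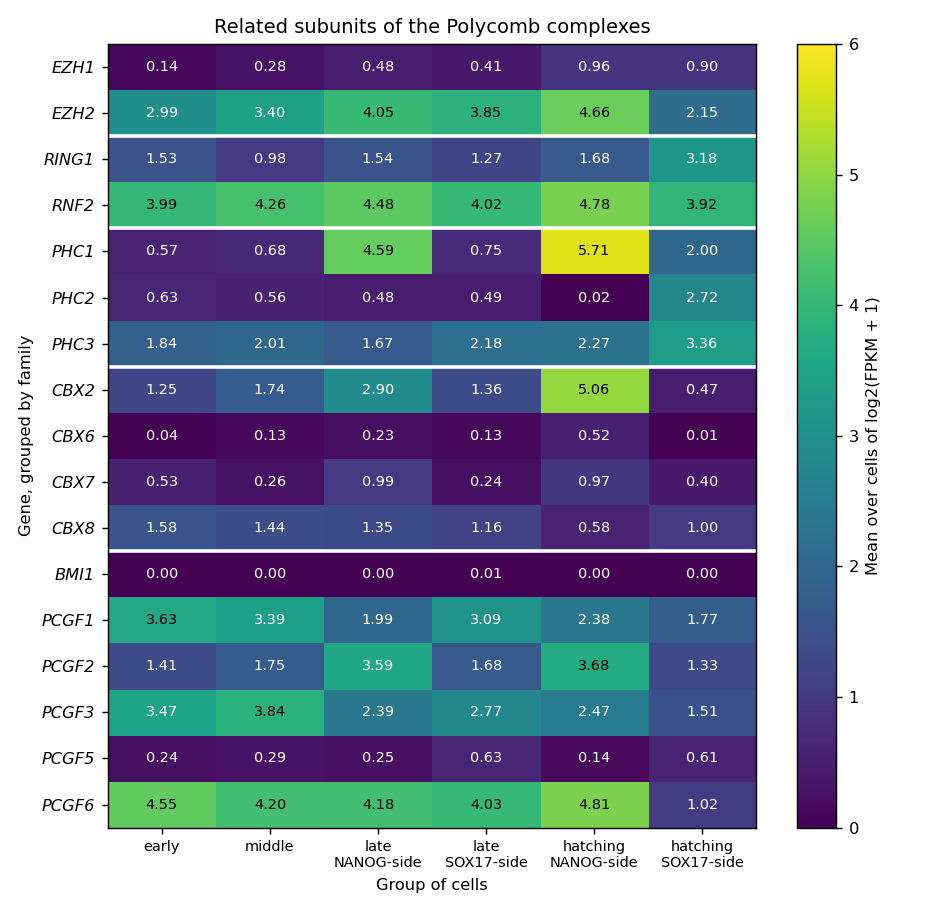
Mean over cells of log2(FPKM + 1) for 17 genes of the EZH, RING, PHC, CBX and PCGF families in 6 groups of cells, as colour and as printed values. PHC1, CBX2 and PCGF2 have their highest means on the NANOG side of hatching cells (5.71, 5.06 and 3.68), while PHC2, PHC3 and RING1 have theirs on the SOX17 side (2.72, 3.36 and 3.18).

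Other PRC2 genes were counted as a list of 8 genes with a row, all above the filter. Between early and hatching cells 2 were higher (PHF19 and PHF1, Polycomb-like proteins) and 2 lower (RBBP7, a histone-binding subunit, and AEBP2), with a median difference of 0.12, where 11.3% of all genes were higher and 16.2% lower. RBBP7 had a mean level of 7.23 (SD 0.68) at the early and 2.56 (SD 2.23) at the hatching stage, a difference of -4.66. PHF19 had 0.13 (SD 0.55) and 2.54 (SD 1.76), a difference of 2.41. Between the sides 0 of 8 differed by 1 log2 unit in late cells, where 7.69% of all genes were higher and 7.89% lower. In hatching cells 2 were lower on the SOX17 side, PHF19 by -1.96 and RBBP4 by -1.24, where 33.7% of all genes were.

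Of the other PRC1 genes, 22 had a row and 18 passed the filter. In hatching cells 2 were higher than in early cells (PCGF2 by 1.64 and KDM2B by 1.45), where 11.3% of all genes were. The 3 lower ones, where 16.2% of genes were, included E2F6, a repressor that joins the PCGF6 variant, with a difference of -1.88. Both counts are shares near that background. The median was -0.51 over the 18 genes and -0.12 over all genes. On the SOX17 side of late cells BCOR, KDM2B and PCGF2 were lower, by differences of -2.50, -2.24 and -1.90, and PCGF1 was higher. Of all genes, 7.89% were lower and 7.69% higher in that comparison. BCOR and KDM2B are partners in the variant with PCGF1, and KDM2B brings it to unmethylated CpG islands. In hatching cells BCOR and KDM2B differed by -3.49 and -3.35 and PCGF6 by -3.79, and in all 5 of the 18 were lower and 4 higher on the SOX17 side, where 33.7% and 14.2% of all genes were.

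Enzymes that remove the Polycomb marks were counted as a list with 7 filtered genes. KDM6B, an H3K27 demethylase, was higher on the SOX17 side by 1.40 in late and 3.09 in hatching cells, where its mean level was 6.55 (SD 0.58) against 3.46 (SD 0.96). It was the 1 gene of the 7 higher there by at least 1 log2 unit at each stage, where 7.69% and 14.2% of all genes were. None of the 7 was lower on the SOX17 side of late cells, where 7.89% of genes were. In hatching cells 3 were lower (KDM6A, BAP1 and USP16), where 33.7% of genes were. KDM6A, the other H3K27 demethylase, differed by -2.16 in hatching cells. Between hatching and early cells 2 of the 7 were lower, where 16.2% of genes were, and 0 were higher, where 11.3% were. These were USP16 and BAP1, which remove ubiquitin from H2A, with differences of -1.65 and -1.23. Of 5 filtered genes of the opposing trithorax group, which methylates H3 at lysine 4, WDR5 alone was lower in hatching than in early cells, by -1.46, where 16.2% of all genes were.

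HOX genes, textbook targets of Polycomb silencing, were low when averaged over the 35 with a row. The median of that mean level per cell was 0.17 in early, 0.18 in middle, 0.15 in late and 0.17 in hatching cells. Of the 35, 4 passed the filter and 18 reached an FPKM of 1 in no early cell, 16 in no middle cell, 16 in no late cell and 17 in no hatching cell. In middle cells 1 HOX gene reached it in at least 50% of cells, as did 1 in late cells. These counts have no share over all genes beside them, and silencing was not tested. HOXC9, named after its values were seen, was the 1 gene of the 4 filtered HOX genes with a large difference between the sides. The HOX genes below the filter were not counted. Its mean level was 3.51 (SD 1.61) in SOX17-side and 1.08 (SD 1.67) in NANOG-side late cells, and 2.46 (SD 2.97) and 0.08 (SD 0.17) in hatching cells.

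The genes whose level followed each member most closely across the 161 cells, after removal of stage means, were listed for the 7 members at an FPKM of 1 in at least 50% of cells. JARID2 had its highest r with ARPC4 (0.55) and DPPA3 (0.53), EZH2 with the mitotic genes SPC25 (0.44) and AURKB (0.44), and CBX2 with POU5F1 (0.45) and PTMA (0.43). The highest values were 0.35 for RNF2 (with SUPT4H1), 0.32 for SUZ12 (with PRUNE), 0.31 for RING1 (with C6orf1) and 0.30 for EED (with PDXDC1). Cells share library preparation and depth, and the r of CBX2 with POU5F1 was 0.29 within late and 0.92 within hatching cells, which fall into the 2 sides. The r of EZH2 with AURKB was likewise 0.13 and 0.83, and that of JARID2 was 0.57 and 0.04 with ARPC4 and 0.63 and -0.07 with DPPA3. For SUZ12 with PRUNE it was 0.58 and -0.04, for RNF2 with SUPT4H1 0.40 and 0.48, for RING1 with C6orf1 0.42 and 0.39, and for EED with PDXDC1 0.37 and 0.48. All these partners were picked as the highest among the 9781 filtered genes. Their r was not set against what such a search gives for unrelated genes.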

How the data were processed

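Single inner cells were collected by hand after PKH26 staining, lysed, and their cDNA amplified by PCR and sequenced as 150 bp read pairs, per the labels' protocols. The authors deposited FPKM values per gene and cell. FastQC, TopHat2 2.1.0, HTSeq and DESeq2 are named in the submitters' processing notes without a role; genome build and annotation were not given in the sources used here. PCR reads carried no molecular identifiers.

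The FPKM columns were mapped to cells by their titles, and stages came from the labels; 0 columns were left unmapped. Values were analysed as log2(FPKM + 1), with a pseudocount of 1. Reads were recovered from the steps of the FPKM values for 13853 of 13857 genes above 0 in at least 2 cells (whole within 0.02 reads, or a relative 1e-06), which held 83.1% to 99.4% of a cell's FPKM, so depths are lower bounds. The recovery and the differences were tested on simulated data. No 2 cells held identical values. Genes with a mean FPKM of at least 1 were counted.

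The members and lists were chosen with earlier results of these data known. Named genes are the 10 members, up to 3 genes of each other Polycomb, eraser and trithorax list with the largest differences of at least 1 log2 unit, the 2 most correlated genes of each member at an FPKM of 1 in 50% of cells, and HOXC9. EPOP, EZHIP, RYBP, AUTS2, the KMT2 genes, SETD1B, MEN1, GATA6 and TEAD3 of these lists were not analysed here. Computation used Python 3.11.15, pandas 2.3.3, numpy 2.4.6, scipy 1.17.1 and matplotlib 3.10.9. Alternatives changed the pseudocount, the average over cells, the scaling, the depth, the filter, the cells by title and the division into sides.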

Additional observations from a re-analysis of the deposited data

How the results depend on the processing

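Of 35 large member differences between stages or sides, 34 kept their sign under every alternative run and 15 stayed at or above 1 log2 unit in all of them. The exception was CBX2 for hatching minus late, at -0.20 in cells with low title numbers (12 and 20 cells) against 1.49 in all. The difference of PHC1 for hatching minus early ranged from 1.96 to 6.39, that of PHC1 between the sides from -5.60 to -1.74 in late and -4.70 to -1.85 in hatching cells, that of CBX2 between the sides from -6.32 to -2.07 in hatching cells, and that of JARID2 for hatching minus early from 1.48 to 2.41. EED for hatching minus late (-1.49 to -0.52) and RING1 between the sides of hatching cells (0.70 to 1.99) fell under 1 log2 unit in 4 and 3 settings. The median member difference was -0.14 for late minus middle in low title numbers, 1.46 for hatching minus early in high title numbers, 0.12 between the sides of late cells with medians over cells, and -1.06 between those of hatching cells with a pseudocount of 0.1; the cause was not tested. A pseudocount of 10 left 3.40% of genes higher and 5.29% lower in hatching than in early cells; a pseudocount of 0.1 left 27.1% lower. Hatching cells with high title numbers held no SOX17-side cells, so that setting gave no value for the sides. No paired analysis was possible because the result comes from no test and no label ties cells of different stages to each other.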
